A study of Sus scrofa with 4 samples.

Results

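The miR-34 and miR-449 family is a set of miRNAs whose main arms share the seed GGCAGUG, the stretch at bases 2 to 8 by which a miRNA pairs with its targets. Members were taken by name: in the table of annotated pig miRNAs every miR-34 or miR-449 entry, and in the table of conserved sequences every entry of the families mir-34 and mir-449. That gave 2 of 321 annotated miRNAs, ssc-miR-34a and ssc-miR-34c (below without the species prefix), and 31 of 2791 conserved sequences, 21 of them in mir-34 and 10 in mir-449. Small RNA came from dorsal and ventral hippocampus of piglets of the Rongchang breed, a Chinese pig. Piglets of the iron group were given 200 mg iron dextran, iron bound to a sugar polymer, by intramuscular injection on days 3 and 4 of life as a source of oxidative stress, and controls received no injection. The 8 purebred newborns, 4 per group with the same mix of females and males, were littermates, and the labels give their genotype as "wide type". Per group and region the tissue of the piglets was combined into 1 sample, so the 4 libraries (iron dorsal, iron ventral, control dorsal and control ventral) are pools. No spread between piglets was measured, the sources used here do not give the age at sampling, and all intervals below cover counting error only.

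miR-34a has a gene of its own and is a direct transcriptional target of p53, the stress-responsive tumour suppressor. miR-34b and miR-34c are cut from a shared primary transcript, and the miR-449 miRNAs lie in an intron of CDC20B. The list of p53-responsive miRNAs read below also holds miR-34b and miR-34c, so a link to p53 does not set miR-34a apart from them. The miR-34b/c and miR-449 loci are known for high expression in cells with many motile cilia, which in the brain line the ventricles and cover the choroid plexus, and in mouse they act together in making those cilia. In mouse hippocampus miR-34c has also been linked to memory. In pig, the RefSeq gene table (assembly Sscrofa11.1, which is not the build of the deposited data) places MIR34C-1 between C9H11orf88 and LAYN, near BTG4.

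The sequences below, from the deposited table of conserved miRNAs, show how closely the members resemble each other; capitals mark bases 2 to 8, counted from the 5′ end.
miR-34c-5p: aGGCAGUGuaguuagcugauug
miR-34b-5p: aGGCAGUGuaauuagcugauug
miR-34a-5p: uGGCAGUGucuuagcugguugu
miR-449a: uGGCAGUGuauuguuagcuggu
miR-449b: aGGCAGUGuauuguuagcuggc
miR-34c-3p: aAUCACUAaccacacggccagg
Over the 22 bases shown, miR-34b-5p differs from miR-34c-5p at 1 position, G11A (miR-34c base first, counted from the 5′ end). miR-449b differs from miR-449a at 2 positions, U1A and U22C (miR-449a base first). The opposite arm, miR-34c-3p, comes from the same hairpin as miR-34c-5p and has another seed. In all, 22 of the 31 family entries carry GGCAGUG at bases 2 to 8, and the conserved table holds 1 further entry with it, listed without a family.

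The 31 entries are named after species and overlap in sequence, so they were grouped by the sequence they contain rather than by name: an entry named for platypus miR-34b-5p, for example, holds the miR-34c-5p sequence. This put 17 entries into the 6 groups listed above. The other 14 entries (9 of mir-34, 5 of mir-449) together held at most 48 reads in mir-34 and at most 18.2 reads in mir-449 in any library. Reads are partly fractional in the deposited table, and the sources used here do not say how reads that match several entries were divided. Summed over its group, miR-34c-5p had 89.7% of the reads of the annotated miR-34c in iron dorsal, 90.1% in iron ventral, 91.6% in control dorsal and 89.4% in control ventral. For miR-34a the corresponding shares lay between 95.4% and 97.1%.

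miR-34c, the member of the ciliated-cell locus that the annotated pig table lists, was the abundant one and differed between libraries. It had 44655 reads in iron dorsal, 86649 in iron ventral, 85261 in control dorsal and 136348 in control ventral. Scaled to CPM (the usual measure of a miRNA's share of library reads) with TMM, which assumes that most miRNAs do not differ, that is 4194 CPM in iron dorsal, 7028 CPM in iron ventral, 6910 CPM in control dorsal and 9409 CPM in control ventral. Iron dorsal was lowest, control ventral highest, and iron ventral and control dorsal lay close to each other between them. Its rank by reads among the 321 miRNAs was 36 in iron dorsal, 28 in iron ventral, 29 in control dorsal and 24 in control ventral.

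miR-34a was far less abundant and nearly level. It had 930 reads in iron dorsal, 1199 in iron ventral, 1112 in control dorsal and 1301 in control ventral. The scaled levels were 87.35 CPM (95% exact binomial interval 81.8 to 93.1) in iron dorsal, 97.2 CPM (91.8 to 102.9) in iron ventral, 90.1 CPM (84.9 to 95.6) in control dorsal and 89.8 CPM (85.0 to 94.8) in control ventral. The intervals of all 4 libraries overlap. Among the 251 annotated miRNAs that reached 10 CPM in at least 1 library, both members included, miR-34c had the 10th largest and miR-34a the 241st largest deviation from its own mean over the 4 libraries. The root mean square deviation was 0.42 on the log2 scale for miR-34c and 0.06 for miR-34a, against a median of 0.16 over all 251.

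**Figure D1:**
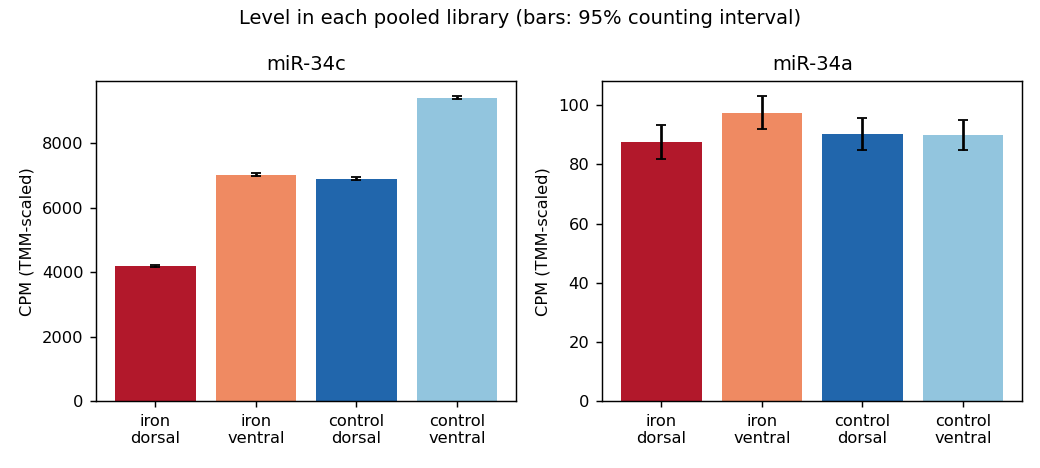
CPM (y axis, TMM-scaled, starting at 0) of miR-34c and miR-34a in the 4 pooled libraries (x axis), with 95% counting intervals as error bars. miR-34c ranges between 4194 CPM in iron dorsal and 9409 CPM in control ventral, while the miR-34a bars, between 87.35 and 97.2 CPM, have overlapping intervals.

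The dorsal comparison of iron with control piglets asks how the family differs after the injections. miR-34c was lower by 1.65-fold in the iron library (95% counting interval 1.63 to 1.67), with 4194 CPM in iron dorsal and 6910 CPM in control dorsal. miR-34a had a ratio of 0.969 (0.887 to 1.06), an interval that includes 1. Neither reached the 2-fold difference used as the call; of all 251 measured miRNAs, 0.797% did, higher or lower. miR-34c nonetheless had the 6th lowest ratio of the 251, and miR-34a the 117th lowest.

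In the conserved table, scaled to its own total, 3 less abundant relatives were lower by more than 2-fold in the dorsal iron library. miR-34b-5p had 28.9 CPM in iron dorsal and 100.5 CPM in control dorsal, a 3.47-fold lower value (3.07 to 3.93). miR-449b was lower by 4.04-fold (2.52 to 6.74), on 22 reads in iron dorsal and 95 in control dorsal. The opposite arm miR-34c-3p was lower by 2.80-fold (2.25 to 3.50), on 110 reads in iron dorsal and 329 in control dorsal. These were the 3 of 6 sequence groups at least 2-fold lower with an interval that excludes 1, where 3.25% of the 1139 single conserved sequences at 10 CPM or more were lower by that rule; miR-449b itself stayed below 10 CPM in every library, and miR-34c-3p is not independent of miR-34c-5p. miR-449a had 82.8 CPM in iron dorsal and 160.9 CPM in control dorsal, 1.94-fold lower (1.80 to 2.10). miR-34c-5p was lower by 1.82-fold (1.80 to 1.85) on this scale and miR-34a-5p by 1.11-fold (1.01 to 1.21). On this scale the median log2 ratio over the 188 conserved families at 10 CPM or more was -0.16. With the TMM factors of the annotated table the same 3 groups passed the 2-fold rule, and miR-34a-5p was lower by 1.02-fold (0.937 to 1.12).

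The ventral comparison puts this question to the second region, and the differences had the same direction for miR-34c but were smaller. miR-34c was lower by 1.34-fold (1.33 to 1.35), with 7028 CPM in iron ventral and 9409 CPM in control ventral, the 22nd lowest ratio of 251. miR-34a had a ratio of 1.08 (1.0006 to 1.17), and its lower bound lay just above 1. Neither was called, against 1.99% of the 251 miRNAs. In the conserved table, miR-34b-5p was lower by 1.496-fold (1.39 to 1.61), with 101.2 CPM in iron ventral and 151.3 CPM in control ventral. For miR-34c-3p the value was 1.54-fold lower (1.33 to 1.78), and for miR-449a 1.18-fold lower (1.12 to 1.25). The interval of miR-449b, 0.993-fold to 1.81-fold lower, included no difference. Of the 6 sequence groups 0 reached 2-fold, against 1.93% of the conserved sequences that were lower.

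The iron log2 ratio was lower in dorsal than in ventral hippocampus for each of the 6 sequence groups, but with 1 pool per group this was not tested. The median over the 188 conserved families was also lower in dorsal (-0.16) than in ventral tissue (-0.06). Dorsal minus ventral, it differed by -1.59 for miR-449b, -1.21 for miR-34b-5p, -0.86 for miR-34c-3p, -0.72 for miR-449a, -0.40 for miR-34c-5p and -0.19 for miR-34a-5p. For the annotated miR-34c it was -0.30, the 66th lowest of 251, so regional differences of that size were common among miRNAs. The mir-449 family as a whole, at -0.75, was 16th lowest of 188 conserved families, and the mir-34 family, at -0.40, was 48th lowest.

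Dorsal against ventral in the iron piglets asks how the regions differ after treatment. miR-34c was lower by 1.68-fold in the dorsal library (1.66 to 1.69), with 4194 CPM in iron dorsal and 7028 CPM in iron ventral, the 5th lowest ratio of 251. miR-34a was lower by 1.11-fold (1.02 to 1.21). Neither was called, against 0.797% of the 251 miRNAs. miR-34b-5p, with 28.9 CPM in iron dorsal and 101.2 CPM in iron ventral, was lower by 3.49-fold (3.09 to 3.96). The value for miR-449b was 3.18-fold lower (1.96 to 5.37), and that for miR-34c-3p 2.55-fold lower (2.05 to 3.21). miR-449a had 82.8 CPM in iron dorsal and 174.4 CPM in iron ventral, 2.11-fold lower (1.95 to 2.28). By the 2-fold rule 4 of 6 sequence groups were lower, against 2.28% of the 1139 conserved sequences at 10 CPM or more. Here too miR-449b stayed below 10 CPM, and miR-34c-3p is not independent of miR-34c-5p. With TMM factors miR-449a was at 1.97-fold (1.83 to 2.13) and 3 of 6 groups remained past the rule. The iron dorsal library takes part in both comparisons in which these groups were called, so the calls are not independent of each other.

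Dorsal against ventral in the control piglets asks the same without treatment. miR-34c was lower by 1.36-fold in the dorsal library (1.35 to 1.37), with 6910 CPM in control dorsal and 9409 CPM in control ventral. miR-34a had a ratio of 1.004 (0.926 to 1.09). Neither was called, against 1.99% of the 251 miRNAs. miR-34b-5p was lower by 1.51-fold (1.40 to 1.62), miR-34c-3p by 1.41-fold (1.22 to 1.62) and miR-449a by 1.28-fold (1.21 to 1.36). For miR-449b, with 95 reads in control dorsal and 115 in control ventral, the interval included no difference. Of the 6 sequence groups 0 reached 2-fold, against 2.37% of the conserved sequences that were lower.

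**Figure D2:**
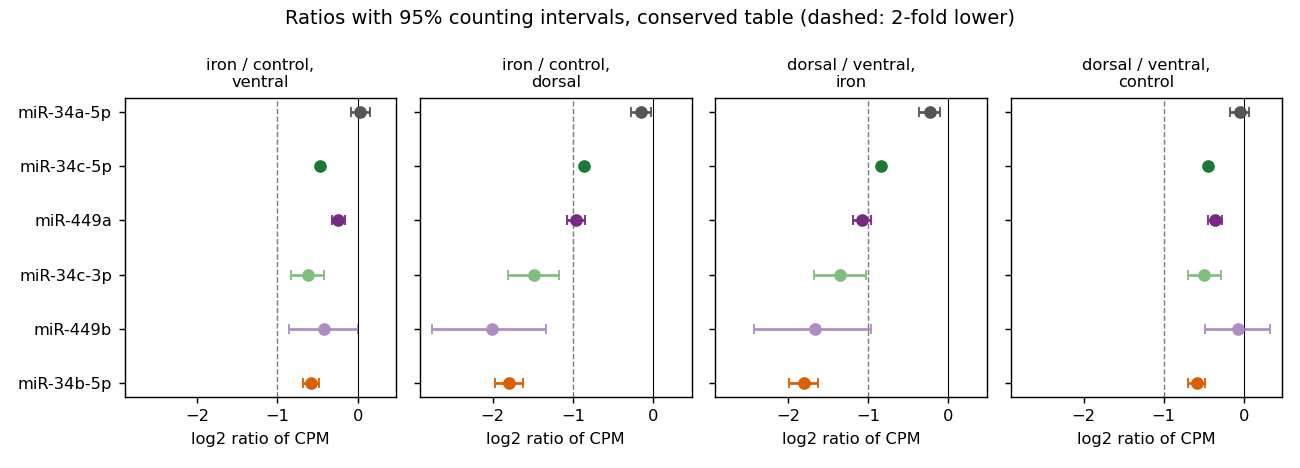
log2 ratio of CPM (x axis) of the 6 sequence groups (y axis) in the 4 comparisons, conserved table, with 95% counting intervals; the dashed line marks 2-fold lower. miR-34a-5p lies between -0.23 and 0.03 in the 4 panels, and the groups left of the dashed line appear in the panels that include the iron dorsal library.

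**Figure D3:**
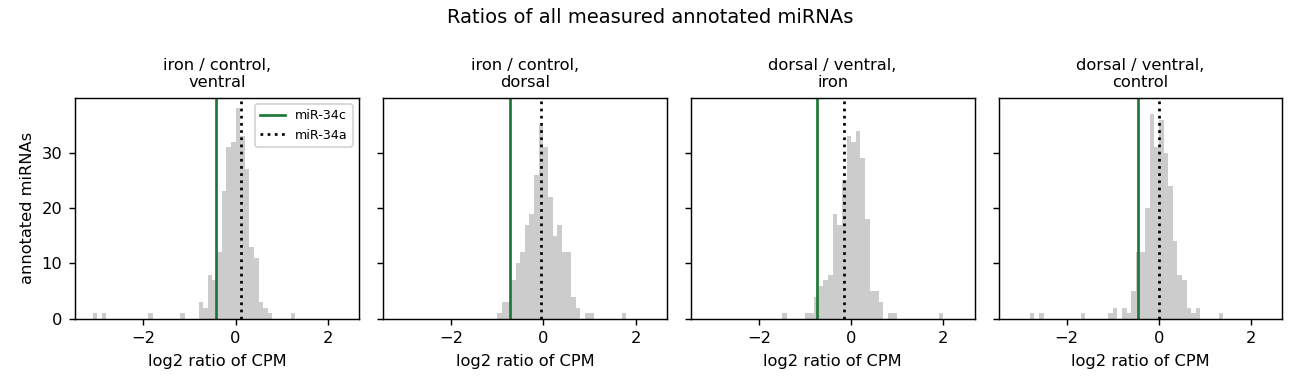
Number of annotated miRNAs (y axis) by log2 ratio of CPM (x axis) for the 251 measured miRNAs in the 4 comparisons, with miR-34c as the solid line and miR-34a as the dotted line. miR-34c lies on the lower flank in each panel, at -0.42, -0.72, -0.74 and -0.45 from left to right, and miR-34a near the centre.

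With region as a term and all 4 libraries in the fit, edgeR's quasi-likelihood test gave miR-34c an iron log2 difference of -0.57, with 2 of 2 regions lower, and an adjusted p of 0.705 over 251 miRNAs (unadjusted p 0.0102). For miR-34a the difference was 0.04 with an edgeR adjusted p of 0.992, and its sign turned with total count scaling. For dorsal against ventral with treatment as a term, miR-34c was at -0.60, lower in 2 of 2 treatments, with an edgeR adjusted p of 0.681 (unadjusted p 0.00814), and miR-34a at -0.07 with an adjusted p of 0.996. In each test 0 of 251 miRNAs (0%) passed an adjusted p of 0.05, while 11 had an unadjusted p under 0.05 for iron and 8 for region. limma-trend called 0 in both, and the DESeq2 Wald test called 1 for iron, which was not a member, and 0 for region. The model has 1 residual degree of freedom, and dorsal and ventral tissue was taken from the same piglets, so these p-values describe 4 libraries and not piglets.

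Ratios inside a library need no scaling between libraries, and by them too iron dorsal was lowest and control ventral highest. In the annotated table there were 48.0 reads of miR-34c per read of miR-34a in iron dorsal (45.0 to 51.3), 72.3 in iron ventral (68.3 to 76.6), 76.7 in control dorsal (72.3 to 81.4) and 104.8 in control ventral (99.2 to 110.8). The ratio was 1.60-fold lower (1.46 to 1.75) for iron against control in dorsal tissue, and 1.45-fold lower (1.34 to 1.57) in ventral tissue. Between regions it was 1.51-fold lower (1.38 to 1.64) in dorsal than in ventral of iron piglets, and 1.37-fold lower (1.26 to 1.48) in dorsal than in ventral of control piglets. In each of these 4 comparisons the interval excluded 1.

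miR-449a, from the other ciliated-cell locus, had 1.04 reads per read of miR-34a-5p in iron dorsal (0.951 to 1.14), 1.87 in iron ventral (1.74 to 2.01), 1.83 in control dorsal (1.69 to 1.97) and 2.26 in control ventral (2.12 to 2.42). For miR-34b-5p the values were 0.365 in iron dorsal (0.321 to 0.415), 1.08 in iron ventral (0.999 to 1.18), 1.14 in control dorsal (1.05 to 1.24) and 1.66 in control ventral (1.55 to 1.78). Both had their lowest value in iron dorsal and their highest in control ventral, with iron ventral and control dorsal overlapping in their intervals.

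**Figure D4:**
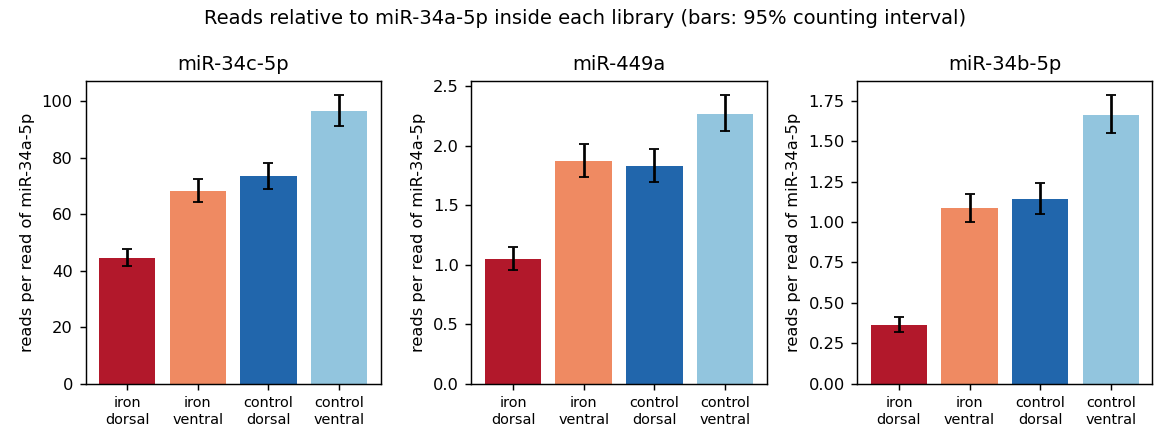
Reads of miR-34c-5p, miR-449a and miR-34b-5p per read of miR-34a-5p (y axes, starting at 0) inside each of the 4 libraries (x axis), with 95% counting intervals. Each has its lowest bar in iron dorsal and its highest in control ventral; miR-34b-5p stands at 0.365 in iron dorsal and 1.66 in control ventral.

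The members of the ciliated-cell loci did not keep a constant ratio to each other. miR-449a had 2.34% of the reads of miR-34c-5p in iron dorsal, 2.74% in iron ventral, 2.49% in control dorsal and 2.35% in control ventral. Its share of miR-34c-5p was 1.17 times as high (1.10 to 1.24) in iron as in control ventral and 1.17-fold lower (1.08 to 1.27) in iron dorsal than in iron ventral, while the iron to control ratio in dorsal tissue, 0.938 (0.866 to 1.02), had an interval that included 1. In control piglets the dorsal to ventral ratio was 1.06, with a lower bound of 1.0005. In the pig annotation miR-34c has 2 precursors, which its mature reads do not tell apart. miR-34b-5p, which shares its primary transcript with miR-34c, stood at 0.817% of miR-34c-5p in iron dorsal, against 1.59% in iron ventral, 1.55% in control dorsal and 1.72% in control ventral. That share was 1.90-fold lower (1.68 to 2.16) for iron against control in dorsal tissue, and 1.94-fold lower (1.72 to 2.21) for dorsal against ventral in iron piglets. In ventral tissue and between the control regions it was lower by 1.08-fold (1.01 to 1.16) and 1.11-fold (1.03 to 1.19). The arm ratio of miR-34c, 3p to 5p, was 0.275% in iron dorsal (0.226% to 0.331%), 0.391% in iron ventral (0.348% to 0.437%), 0.421% in control dorsal (0.377% to 0.469%) and 0.436% in control ventral (0.399% to 0.474%). For iron against control in dorsal tissue it was lower by 1.53-fold (1.23 to 1.92).

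**Figure D5:**
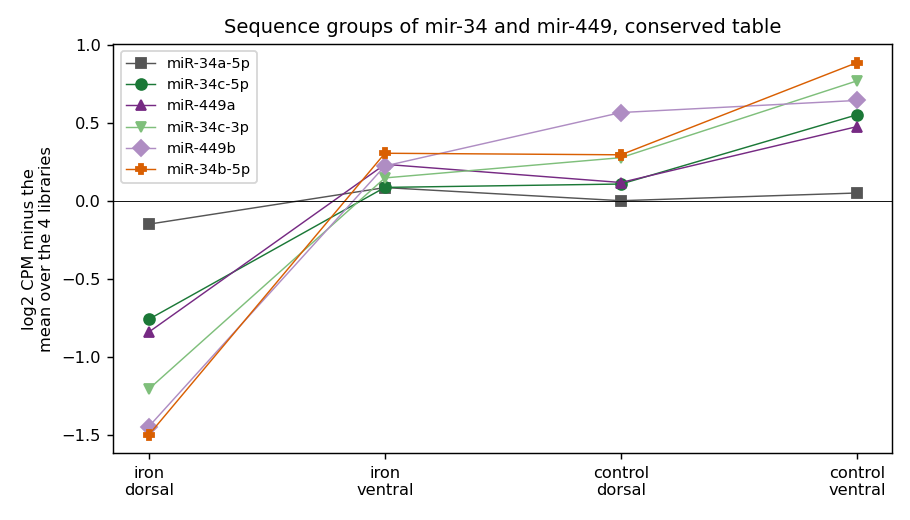
log2 CPM of each sequence group minus its mean over the 4 libraries (y axis) in the 4 libraries (x axis), conserved table; lines only join the points of a group. The groups other than miR-34a-5p lie between -0.76 and -1.4965 in iron dorsal, and miR-34a-5p lies at -0.15.

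Among variants of miR-34c-5p in the conserved table, the 23-base sequence ending in C held 65.1% of mir-34 reads in iron dorsal, 67.0% in iron ventral, 67.1% in control dorsal and 68.7% in control ventral. The 23-base sequence ending in U held 13.1% to 14.98%, and the 22-base sequence shown above 8.58% to 11.5%. The 22-base sequence had its highest share in iron dorsal. A 23-base sequence ending in G (2.68% to 3.37%) and one that starts a base earlier (2.47% to 3.26%) made up most of the rest of miR-34c-5p, and the 23-base miR-34b-5p held 0.561% to 1.204%. In mir-449 the 4 miR-449a sequences together held 97.1% of reads in iron dorsal, 95.9% in iron ventral, 94.8% in control dorsal and 95.5% in control ventral. The 22-base miR-449a shown above held the most of them, 38.2% to 40.7%. The 25-base form held 26.7% to 29.95%, the 21-base form 14.2% to 17.5%, and a 22-base form ending in A 9.95% to 14.3%. These shares rest on the authors' division of reads between overlapping entries.

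As whole families, mir-34 had 3664 CPM in iron dorsal, 6589 CPM in iron ventral, 6681 CPM in control dorsal and 9076 CPM in control ventral, and mir-449 had 85.3 CPM in iron dorsal, 181.7 CPM in iron ventral, 169.8 CPM in control dorsal and 215.8 CPM in control ventral. Sequences with the seed GGCAGUG, summed, made up 0.365% of conserved reads in iron dorsal, 0.654% in iron ventral, 0.660% in control dorsal and 0.900% in control ventral, nearly all of it miR-34c. By the 2-fold rule mir-449 was lower for dorsal against ventral in iron piglets, at 2.13-fold (1.98 to 2.30), where 4.26% of 188 families were lower. With TMM factors it was at 1.998-fold (1.85 to 2.16) and no longer called. In the dorsal iron comparison mir-449 was at 1.99-fold lower (1.84 to 2.15), just short of the rule, and mir-34 at 1.82-fold lower (1.80 to 1.85), where 2.66% of families were lower; they were 6th and 10th lowest of the 188. In the ventral iron comparison mir-449 was 1.19-fold lower (1.12 to 1.25) and mir-34 1.38-fold lower (1.37 to 1.39), neither of them called, against 2.66% of families lower. Between the control regions mir-449 was 1.27-fold lower (1.201 to 1.35) and mir-34 1.36-fold lower (1.35 to 1.37), neither of them called, against 3.19% of families lower.

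Markers of the cell types that could carry these miRNAs were read beside them. The defining neuronal miR-124a stood at 33451 CPM in iron dorsal and between 40373 and 41655 CPM in the other libraries. The choroid plexus list has 3 miRNAs, of which the annotated table holds miR-204, at 164.3 CPM in iron dorsal, 177.8 CPM in iron ventral, 199.1 CPM in control dorsal and 252.8 CPM in control ventral. In the conserved table the family mir-204 had 166.3 CPM in iron dorsal, 188.8 CPM in iron ventral, 213.1 CPM in control dorsal and 279.65 CPM in control ventral. The family mir-1298 had 47.2 CPM in iron dorsal, 101.4 CPM in iron ventral, 73.15 CPM in control dorsal and 100.3 CPM in control ventral. Both were lowest in iron dorsal, as were the ciliated-cell members and the neuronal, oligodendrocyte and immune sums over the listed miRNAs given below. For dorsal against ventral in iron piglets mir-204 had a log2 ratio of -0.18, beside a median of -0.13 over 188 families. The family mir-1298 was at -1.10 there, and at 0.02 in the ventral iron comparison. The part of choroid plexus or ependymal tissue in the family's differences was not tested. The list for ciliated cells itself consists of miR-34b, miR-34c and the miR-449 miRNAs, so it is no separate measure. The other epithelial miRNAs summed to 139.6 (iron dorsal), 129.4 (iron ventral), 156.7 (control dorsal) and 459.4 CPM (control ventral). Control ventral stood apart mostly through miR-182 (222.5 CPM there), miR-183 (130.6 CPM) and miR-96-5p (99.5 CPM). The remaining annotated members of that list, miR-429 and miR-205, stayed below 10 CPM in every library, and miR-205 was highest in control dorsal. The neuronal list has 6 names, which matched 4 annotated miRNAs. These 4 summed to 51041 CPM in iron dorsal and to between 57285 and 63554 CPM elsewhere. They were all below 1 in the dorsal iron comparison, as were 133 of all 251 miRNAs. miR-129a-3p, miR-129a-5p and miR-129b were not matched to the listed name miR-129. Their log2 ratios were -0.01, -0.51 and -0.51 in the dorsal, and -0.74, 0.05 and 0.05 in the ventral iron comparison. The oligodendrocyte list summed to 8812 CPM in iron dorsal and to between 10264 and 13906 CPM elsewhere. The astrocyte list summed to 37842 CPM in iron dorsal and to between 31808 and 35924 CPM elsewhere. In the dorsal iron comparison the 2 measured oligodendrocyte members were below 1. The 4 astrocyte members were above 1 there, as were 118 of all 251 miRNAs. That list holds miR-29a but not its relatives miR-29b and miR-29c, whose log2 ratios in the same comparison were -0.26 and -0.39. The microglial and immune list summed to 889 (iron dorsal), 951 (iron ventral), 1010 (control dorsal) and 1109 CPM (control ventral). The sum over the listed members was lowest in iron dorsal and highest in control ventral, as for miR-34c, but the members differed. miR-142-5p, the largest, had 542 CPM in iron dorsal and 653 CPM in control ventral, and miR-142-3p had its extremes in the same libraries. miR-146a-5p and miR-150 were lowest in iron ventral, and miR-155-5p was highest in control dorsal. That list holds miR-146a-5p but not its relative miR-146b. miR-146b had 1018.7 CPM in iron dorsal, 874.8 CPM in iron ventral, 937.0 CPM in control dorsal and 380.2 CPM in control ventral. It was thus highest where the listed sum was lowest, and lowest where that sum was highest. The order of the sum therefore depends on which miRNAs are listed. The 5 measured members of the immune list were all below 1 in the dorsal iron comparison, where 133 of all 251 miRNAs were. These 5 lay between -0.87 for miR-142-3p and -0.06 for miR-155-5p, while the unlisted miR-146b was above 1 there. The part of these cells in the family's differences was not tested. Erythroid miRNAs summed to 837 to 1075 CPM and vascular miRNAs to 16024 to 21937 CPM over the 4 libraries. In bulk tissue, fewer cells of a type and less RNA per cell cannot be told apart.

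The miRNAs whose pattern over the 4 libraries was most like that of miR-34c, by the root mean square difference of centred log2 CPM, were miR-136 (0.08), miR-190b (0.08), miR-142-3p (0.09), miR-490-5p (0.11) and miR-135 (0.12). miR-136, for example, had 68.7 CPM in iron dorsal, 98.9 CPM in iron ventral, 103.2 CPM in control dorsal and 141.5 CPM in control ventral. For miR-34a they were miR-769-3p (0.01), miR-2366, miR-92b-3p, miR-7134-3p and miR-140-5p (0.04 each). miR-34a and miR-34c were 0.40 apart. Within the conserved table miR-449a was 0.09 from miR-34c-5p, miR-34c-3p 0.26, miR-34a-5p 0.40, miR-449b 0.42 and miR-34b-5p 0.43. These are descriptions over 4 libraries.

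Other miRNAs reported to respond to p53 were read from a list of 25 names, which matched 22 annotated miRNAs (arms counted apart), 19 of them at 10 CPM or more, with miR-34a and miR-34c included. In the dorsal iron comparison 9 of the 19 were above and 10 below 1, with a median log2 ratio of -0.03, while 118 of all 251 were above and 133 below 1 with a median of -0.02. There miR-34c had the lowest value of the list, -0.72, and miR-192, a p53-induced miRNA, the highest, 0.99, with 98.3 CPM in iron dorsal and 49.7 CPM in control dorsal. In the ventral iron comparison 13 were above and 6 below 1, with a median of 0.10 against 0.00 over all miRNAs, of which 122 of 251 were below 1; the list ran between -0.55 for miR-29b and 0.62 for miR-192. For dorsal against ventral in iron piglets 7 were above and 12 below 1, with a median of -0.07 against 0.01 over all, between miR-34c at -0.74 and miR-145-5p at 0.37. In control piglets 10 were above and 9 below 1, with a median of 0.01 against -0.00 over all, between miR-22-3p at -0.46 and miR-143-3p at 0.61. Of the 19, 0 were called in any of the 4 comparisons, where 0.797% to 1.99% of all 251 were, so a list of this size would hold few or no calls at the overall share.

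A list of 13 miRNAs reported in oxidative stress, miR-34a among them, matched 11 annotated miRNAs, 10 of them at 10 CPM or more, and the counts and medians over all 251 are those just given. In the dorsal iron comparison 4 were above and 6 below 1, with a median of -0.05, between miR-128 at -0.44 and miR-21 at 0.49. In the ventral iron comparison 7 were above and 3 below 1, with a median of 0.04, between miR-335 at -0.69 and miR-128 at 0.35. For dorsal against ventral in iron piglets 3 were above and 7 below 1, with a median of -0.14, between miR-210 at -0.60 and miR-21 at 0.35. In control piglets 5 were above and 5 below 1, with a median of -0.06, between miR-144 at -0.74 and miR-128 at 0.59. Of the 10, 0 were called in any comparison, again beside 0.797% to 1.99% of all 251.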

How the data were processed

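Each library is 1 pool of tissue per region and treatment. The submitters' processing notes name cutadapt 1.2.2 and the pig builds Sscrofa10.2 and susScr3. For aligner, quantifier and miRNA release, nothing was given in the sources used here. The authors deposited estimated counts (reads, many of them fractions) for annotated, predicted and conserved miRNAs, per the file headers, and reads were rounded to whole numbers. The RPM values that the authors deposited for annotated miRNAs had a divisor within 0.1% of the sum of annotated and predicted rows; they served as an alternative. The 8 RPM columns of the other tables were not used. Predicted miRNAs come without a sequence and could not be searched for the seed.

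Of 326 annotated rows, those with the same precursors and reads within 0.1% in every library were merged, leaving 321, with 11396809 (iron dorsal), 12299691 (iron ventral), 12100980 (control dorsal) and 13839556 (control ventral) reads. The limit for a miRNA without reads, 3 reads, lay between 0.217 and 0.263 CPM. Annotated reads were scaled with TMM (edgeR 4.0.16), conserved reads by the table total. Ratios carry exact conditional binomial (Clopper-Pearson) 95% intervals; a miRNA at 10 CPM or more in at least 1 library was called at 2-fold with the interval excluding 1. Amplified reads are not independent molecules. Additive models of region and treatment used edgeR's quasi-likelihood test with Benjamini-Hochberg adjustment; DESeq2 1.42.0 and limma 3.58.1 were alternatives. The scripts were tested on simulated data. All members by name were reported, with conserved sequences with at least 1% of family reads, the 5 miRNAs nearest in pattern and the extremes of each list. The opposite arm miR-34c-3p was reported as well, although it held 0.266% to 0.422% of mir-34 reads. For the sequence groups no minimum CPM was set. The members and lists were chosen with earlier results of these data known, and the grouping by contained sequence after the sequences were seen.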

Additional observations from a re-analysis of the deposited data

How the results depend on the processing

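Each group has 1 library, so no fit with a replicate block could be made and no replicate of a group left out. The additive model already sets regions against each other within a treatment, and treatments within a region; without 1 library it has no residual degree of freedom and returns the ratio of the complete region or treatment. miR-34c kept its direction in all 4 comparisons under every alternative. With total counts its log2 ratio was -0.48 (iron ventral against control ventral), -0.85 (iron dorsal against control dorsal), -0.85 (dorsal against ventral, iron) and -0.48 (dorsal against ventral, control). Total counts moved the median of all 251 miRNAs in the dorsal iron comparison to -0.15, the authors' RPM to -0.13. With that RPM miR-34c was at -0.83 in the dorsal iron comparison, -0.82 for region in iron and -0.41 for region in control. With rows not merged it was at -0.45 in the ventral iron comparison, -0.77 for region in iron and -0.51 for region in control; with DESeq2 size factors it was at -0.40 in the ventral iron comparison and -0.43 for region in control. miR-34a turned to -0.059 (0.04 with TMM) in the additive model of iron with total counts. A scaling factor applies to every miRNA of a library, and miR-34c moved from -0.57 to -0.67 in the same model.

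On the conserved table, TMM factors put mir-34 at -0.41 (ventral iron), -0.75 (dorsal iron), -0.75 (region, iron) and -0.41 (region, control), and mir-449 at -0.88 in the dorsal iron comparison. Counting rows with identical reads once left both families' ratios as they were. miR-34a, with at most 97.2 CPM, had no value at a minimum of 100 CPM.

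Called miRNAs numbered 5 in the ventral iron comparison, 2 in the dorsal one, 2 for region in iron and 5 for region in control. A minimum of 100 CPM gave 3, 0, 0 and 2, no minimum gave 9, 6, 4 and 11, in that order, since fewer or more miRNAs were counted, and total counts gave 4 in the dorsal iron comparison. Against 0 calls in edgeR's additive model, total counts or DESeq2 size factors gave 2 for iron and 3 for region, no minimum 3 and 4, and the DESeq2 Wald test 1 for iron. miR-34c was not among them: over the alternatives its adjusted p lay between 0.144 and 0.909 for iron, and between 0.108 and 0.974 for region (edgeR, DESeq2 and limma). Depth limits miR-449b most, with 22 reads in iron dorsal.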
